A study of Mus musculus with 26 samples.

Results

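Antiviral interferon-stimulated genes are transcribed when a cell senses interferon or a microbial product, and their proteins recognise, trap or degrade viral components. The 46 genes described here are the rows of the count table whose Ensembl identifier carries 1 of 46 listed symbols in the GRCm38 annotation. All 46 were found among 55487 rows, and all 46 passed the filter on low counts that left 17143 genes for testing. They were sorted by role into 7 classes. These held 5 nucleic acid sensors, 4 IFIT genes, 7 OAS genes and other enzymes that act on RNA, and 9 MX and membrane effectors. The rest were 8 genes of the ISG15, ubiquitin and ADP-ribose systems with 1 kinase, 4 Schlafen genes and 9 others. The annotation lists Mx2 as a polymorphic pseudogene. The cells were macrophages from mouse lung, either resident alveolar macrophages (AM), which live in the air spaces, or bone marrow-derived macrophages (BM), which enter the lung during inflammation. AM were taken from lungs without treatment (day 0, n = 3) and at day 1 (n = 4), day 3 (n = 3) and day 7 (n = 4) after lipopolysaccharide (LPS), a component of the outer wall of Gram-negative bacteria, was given into the trachea. BM were taken at day 1 (n = 5), day 3 (n = 4) and day 7 (n = 3) after LPS. Genotype, strain, age, sex, LPS dose and the sorting gates are not given in the sources used here, apart from the word young in the descriptions of the day 0 libraries. The labels do not say whether replicates are different mice, and each p-value is set by how far these libraries scatter, whatever the source of that scatter.

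In the textbook pathway, LPS bound by TLR4 leads through the adaptors TRAM and TRIF to the kinases TBK1 and IKKε, which activate IRF3 and IRF7 and so the gene for interferon beta. Secreted type I interferon binds the receptor IFNAR on the same and neighbouring cells, where the kinases JAK1 and TYK2 start a signal to a transcription factor complex with IRF9 that binds the interferon-stimulated response element (ISRE) before its target genes. Interferon gamma acts through a separate receptor and another element, GAS. SOCS1 and USP18 damp the response, and alveolar macrophages are known as a main source of type I interferon in the infected lung.

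Between 9176202 and 80816742 reads were counted per library, with AM day 0 deepest (35780951 to 80816742). Genes with any count numbered 17404 to 21597 per AM day 0 library, 11308 to 14727 at AM day 1 and 14826 to 15148 at AM day 3. At day 7 there were 16379 to 17098 in AM and 17121 to 19306 in BM. BM had 9684 to 16746 at day 1 and 9126 to 12968 at day 3. The part of these numbers in the changes with day was not tested. The summed level of 10 markers of resident alveolar macrophages ran from 16378 to 30097 CPM (counts relative to the TMM-scaled library size, as edgeR's cpm gives them) in AM and from 890 to 4060 CPM in BM at days 1 and 3. At day 7 it was 13975 and 14768 CPM in BM_day7.1 and BM_day7.2 and 2777 CPM in BM_day7.3, which lay within the BM day 3 range. BM_day3.1 (libraries are named by cell type, day and replicate number) stood apart, with the collagen genes Col1a1 at 14976 CPM and Col1a2 at 12125 CPM against at most 233 and 172 CPM in every other library. In this library Col3a1 was at 333 CPM against at most 57.65 CPM in every other library, and the fibroblast gene Pdgfra was at 26.2 CPM, its highest value. The other fibroblast and endothelial genes listed, Dcn, Kdr, Cdh5, Pecam1 and Vwf, were at 0, 0.0825, 31.6, 38.0 and 89.4 CPM. Each of these had a higher value in some other library. BM_day3.1 had 0 counts for 8 of the 46 genes, and the fewest genes with any count of all libraries, 9126. Neutrophil markers summed to 570 to 1395 CPM in BM day 1, against 74.7 to 598 CPM in all AM groups, and reached 3521 CPM in BM_day3.1, with Elane at 0 throughout. Markers of monocyte-derived and tissue macrophages summed to 2523 to 8813 CPM in AM day 3 and to at most 1659 CPM in the other AM groups, and the part of such cells in the AM day 3 values was not tested. The 8813 CPM was the sum of AM_day3.2, where Apoe made up 6035 CPM of it. Blood monocyte markers summed to 1312 to 2689 CPM in AM day 3 and to 727 to 1170 CPM in the other AM groups, and the part of monocytes was not tested. Conventional dendritic cell markers summed to 96.3 to 261 CPM in AM day 0 and to 12.1 to 51.4 CPM in the other AM groups. B cell markers summed to 52.2 to 84.0 CPM against 0.0973 to 17.5 CPM, and T and NK cell markers to 31.1 to 58.3 CPM against 0.812 to 26.1 CPM. Lung epithelium markers summed to 250 to 371 CPM in AM day 0, 55.3 to 121 CPM at days 1 and 3 and 211 to 271 CPM at day 7. The part of such cells in AM day 0 was not tested. Plasmacytoid dendritic cells make type I interferon. The sum of their 8 markers lay between 81.4 and 116 CPM in the BM day 1 libraries and between 40.9 and 57.7 CPM in those of AM day 1. It lay between 95.4 and 123 CPM in AM day 0, 46.2 and 53.1 in AM day 3 and 80.1 and 94.1 in AM day 7. In BM it lay between 45.5 and 161 CPM at day 3 and 100 and 118 at day 7. Their defining marker Siglech was at 0 in every BM day 1 library. In AM_day1.3 Siglech was at 7.39 CPM, with 0 in the rest of AM day 1, and in AM day 0 it was at 3.28, 2.62 and 2.23 CPM. Tcf4, which other cells also use, was higher in BM day 1 (25.4 to 64.8 CPM) than in AM day 1 (4.79 to 15.7 CPM). So was Runx2, at 38.5 to 57.9 CPM against 24.9 to 36.3 CPM. Ccr9 was at 5.22 and 9.49 CPM in BM_day1.2 and BM_day1.3, and no remaining marker passed 9.49 CPM in either group. The part of plasmacytoid dendritic cells in the BM values was not tested. RNA of 4 Y-linked genes summed to 146 to 227 CPM in AM days 0, 1 and 3 and to at most 4.09 CPM in AM and BM day 7. AM day 7 and the earlier AM days thus also differ in sex as read from RNA, which cannot be told apart from the day. AM_day0.1 was mixed, with the female transcript Xist at 144 CPM beside 146 CPM of Y-linked RNA. In BM the Y-linked sum was 7.75 to 38.4 CPM at day 1, and at day 3 it was 0.165 and 0.0479 CPM in BM_day3.1 and BM_day3.2 and 167 and 169 CPM in BM_day3.3 and BM_day3.4. Xist was at 472 to 910 CPM in BM day 1 and at 0 in every AM day 1 library. At day 1 sex as read from RNA thus cannot be told apart from cell type. At day 3 AM and BM are unbalanced in sex as read from RNA. The library identifiers in the sample descriptions begin with a number that AM day 0 alone has, another that BM day 1 alone has and one that all other groups share. This number and the group cannot be told apart where those 2 groups are compared with others.

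The stretch just before the transcription start is where the ISRE is usually found, and a window of 250 bases was held for 35 of the 46 genes in the RefSeq table (GRCm38.p6). Its core, taken as GAAA followed by any 2 bases and GAAA again and searched on both strands, was present in 11 of these 35 genes (31.4%) and in 3.46% of the 27025 genes with a window. The letters TTCNNNGAA of the GAS element were present in 6 of 35 (17.1%) and in 8.13% of all. There were 18 ISRE core matches in the 11 genes, some of them overlapping, and 14 of the 18 began within 150 bases of the start. A match is a description of letters and not a binding site. The windows of 5 genes on which the results turn are shown 5′ to 3′ on the gene's strand and end just before the start, with matches on either strand in capitals: Rsad2 (chr12:26456453-26456702, minus strand), Ifit3 (chr19:34583279-34583528, plus strand), Isg15 (chr4:156200819-156201068, minus strand), Oas3 (chr5:120777660-120777909, minus strand) and Ifitm3 (chr7:141010745-141010994, minus strand). The first 4 are shown because they hold the core and differ in the number of matches, and Ifitm3 because it holds none in this window and had the highest level per length in BM at days 1 and 3.
Rsad2: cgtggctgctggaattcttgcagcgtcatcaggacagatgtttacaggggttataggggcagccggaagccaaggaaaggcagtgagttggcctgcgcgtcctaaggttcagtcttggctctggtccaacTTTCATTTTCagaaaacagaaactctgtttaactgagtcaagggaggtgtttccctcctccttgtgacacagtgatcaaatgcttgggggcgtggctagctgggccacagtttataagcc
Ifit3: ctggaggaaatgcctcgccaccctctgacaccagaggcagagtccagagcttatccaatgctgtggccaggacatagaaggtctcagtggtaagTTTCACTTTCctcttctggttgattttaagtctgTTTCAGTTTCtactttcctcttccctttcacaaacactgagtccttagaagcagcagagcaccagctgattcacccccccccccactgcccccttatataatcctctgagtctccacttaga
Isg15: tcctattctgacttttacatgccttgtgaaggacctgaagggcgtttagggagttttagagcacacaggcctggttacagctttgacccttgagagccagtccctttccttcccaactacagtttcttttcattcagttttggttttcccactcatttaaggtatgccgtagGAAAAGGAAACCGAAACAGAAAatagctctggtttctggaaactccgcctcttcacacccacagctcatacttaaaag
Oas3: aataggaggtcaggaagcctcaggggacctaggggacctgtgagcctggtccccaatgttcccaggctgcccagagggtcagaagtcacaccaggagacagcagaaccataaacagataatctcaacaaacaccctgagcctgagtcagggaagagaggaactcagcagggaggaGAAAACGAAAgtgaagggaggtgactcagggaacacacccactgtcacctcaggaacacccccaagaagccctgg
Ifitm3: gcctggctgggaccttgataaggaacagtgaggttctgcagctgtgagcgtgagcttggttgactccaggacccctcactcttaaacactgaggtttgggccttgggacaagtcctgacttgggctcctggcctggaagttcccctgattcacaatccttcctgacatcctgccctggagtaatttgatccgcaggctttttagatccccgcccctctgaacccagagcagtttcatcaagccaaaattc
Rsad2 and Oas3 had 1 match each, Ifit3 had 2 separate matches and Isg15 had 3 that overlap in 1 run.

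The 46 genes were low in AM without LPS, high at day 1, still high at day 3 and back near the starting level at day 7. The median over the 46 genes lay between 6.10 and 10.03 CPM in the AM day 0 libraries, 56.9 and 90.2 CPM at day 1, 37.5 and 61.6 CPM at day 3 and 6.90 and 11.4 CPM at day 7. In BM it lay between 67.2 and 163 CPM at day 1, 56.5 and 89.4 CPM at day 3 and 16.9 and 21.6 CPM at day 7. The AM day 1 and day 3 libraries were thus all above those of day 0 and day 7 in this median, and the BM day 7 libraries were all above those of AM day 7. Some libraries were low or high across the list. AM_day1.3 was the lowest of its group for 31 of 46 genes, AM_day3.1 for 37 and BM_day7.3 for 28, while BM_day1.2 was the highest of its group for 33 and AM_day3.2 for 28.

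**Figure D1:**
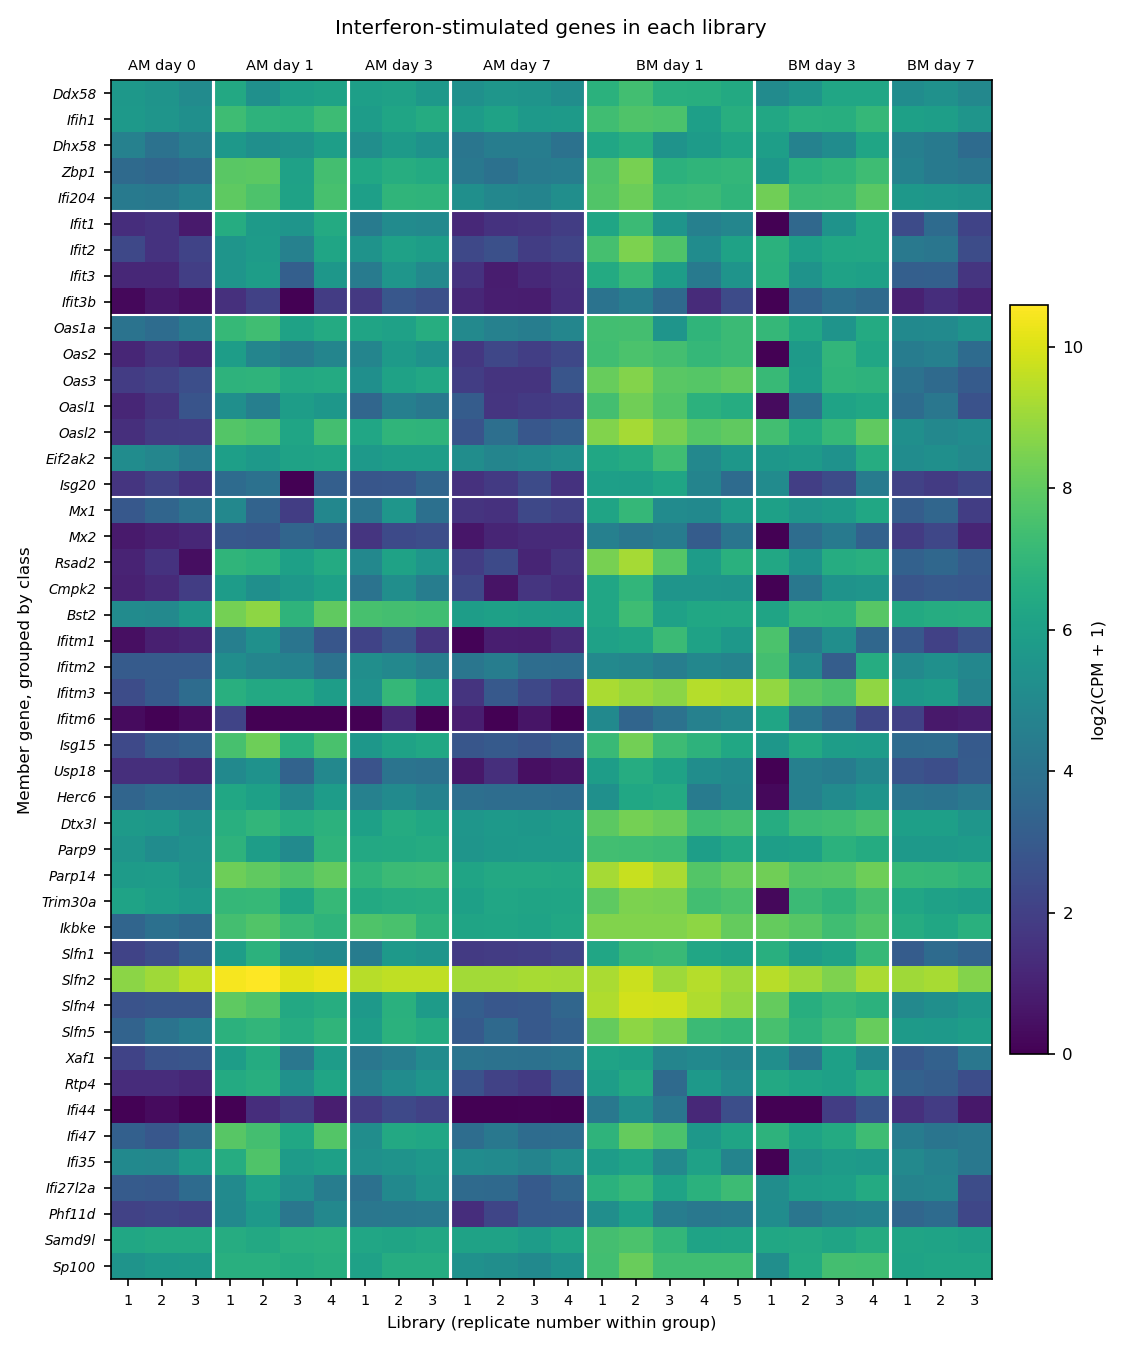
Level of each of the 46 genes (rows, ordered by class, white lines between classes) in each of the 26 libraries (columns, grouped by cell type and day), as log2(CPM + 1) in colour. AM day 0 and AM day 7 are dark for most rows and AM days 1 and 3 and BM day 1 bright, Slfn2 is bright throughout, and BM_day3.1 has 8 genes at 0.

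Levels can be compared between genes only per length, as CPM per kilobase of exon. On this scale Slfn2 was the highest of the 46 genes in all 4 AM groups, with means from 341 CPM per kilobase at day 7 to 794 at day 1. Bst2 came next in every AM group. In BM the antiviral membrane protein gene Ifitm3 led at day 1 (839 CPM per kilobase) and day 3 (498), and Slfn2 led at day 7 (303). Isg15 followed Bst2 in AM day 1, at 257.5 CPM per kilobase.

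In resident cells most of the list was higher within a day of LPS, and no gene of it was called lower. Of the 46 genes, 30 were higher at AM day 1 than at AM day 0 by edgeR's quasi-likelihood test (adjusted p under 0.05 over all 17143 genes) and 0 were lower, where 3.22% of all genes tested were higher and 3.06% lower. At day 3, 22 were higher than at day 0 and 0 lower (1.78% and 0.723% of all genes). At day 7, 2 were higher, Oasl2 and Ikbke, and 0 lower (0.408% and 0.268% of all genes). The median log2 fold change over the 46 was 3.03, 2.30 and 0.25 at days 1, 3 and 7, against −0.20, −0.07 and −0.04 over all genes tested. These 3 comparisons share the day 0 libraries. Without AM_day0.1, AM_day0.2, AM_day0.3 or AM_day7.2 the day 7 count was 1 in place of 2, and in a fit to the 2 groups alone it was 10 higher and 1 lower.

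The 30 genes of day 1 were spread over every class, with 3 of 5 sensors, 3 of 4 IFIT genes, 5 of 7 OAS genes and RNA enzymes, 5 of 9 MX and membrane genes, 5 of 8 of the ISG15 class, all 4 Schlafen genes and 5 of the 9 others. The 16 that did not pass were the RNA helicases Ddx58 (which encodes RIG-I) and Dhx58 (LGP2), Ifit3b, the kinase Eif2ak2 (PKR), the exonuclease Isg20, Mx1, Mx2, Ifitm2, Ifitm6, the ligase Herc6, Parp9, Trim30a, Ifi44, Ifi35, Samd9l and Sp100. Ifi44 aside, their fitted changes ran from 0.21 ± 0.26 in Samd9l to 2.98 ± 1.17 in Mx2, and those of Eif2ak2 (1.20 ± 0.40) and Herc6 (2.33 ± 0.80) were at an edgeR adjusted p of 0.073 and 0.083. Samd9l was already at 77.8, 84.6 and 84.3 CPM in AM day 0 and at 93.1, 82.4, 101 and 104 CPM in AM day 1, so it started high and its 2 groups overlapped. The groups of Mx1, whose functional protein is a dynamin-like GTPase that blocks influenza virus, overlapped as well. Mx1 was at 6.60, 9.85 and 15.0 CPM in AM day 0 and at 30.1, 9.37, 2.81 and 28.9 CPM in AM day 1. RNA counts do not show whether functional protein was made. The 22 genes above day 0 at day 3 were Zbp1 and Ifi204, Ifit1, Ifit2 and Ifit3, Oas1a, Oas2, Oas3 and Oasl2, Rsad2, Cmpk2, Bst2 and Ifitm3, Isg15, Parp14 and Ikbke, Slfn1, Slfn4 and Slfn5, and Xaf1, Rtp4 and Ifi47. Leaving out 1 library ended the day 3 call of Ifit1 (adjusted p of at most 0.22 over all alternatives tried), Oas2 (0.098), Cmpk2 (0.28), Parp14 (0.052) and Xaf1 (0.25). In bulk RNA a lower level of a gene can mean fewer cells of a type or less RNA per cell, and the 2 cannot be told apart.

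Among the sensors, Zbp1 encodes a protein that binds Z-form nucleic acid and can trigger cell death. In AM its level was 11.6, 10.3 and 12.0 CPM on day 0, 234, 238, 64.9 and 169 on day 1, 77.6, 96.7 and 88.9 on day 3 and 17.8, 14.5, 20.4 and 21.5 on day 7. In BM it was at 195, 338, 111, 122 and 128 CPM on day 1, 47.2, 105, 122 and 157 on day 3 and 24.8, 19.7 and 16.6 on day 7. Every AM library of days 1 and 3 lay above those of days 0 and 7, and every BM day 3 library lay above those of BM day 7. The log2 fold change (± SE from the edgeR fit) was 3.97 ± 0.46 for AM day 1 against day 0, −2.24 ± 0.39 for AM day 7 against day 3 and −2.40 ± 0.42 for BM day 7 against day 3, with edgeR adjusted p of 1.2e-06, 9.1e-04 and 0.0012. Ifi204, a DNA-binding sensor of the PYHIN family, stood in AM at 19.5, 17.7 and 24.7 CPM on day 0, 249.9, 196, 67.6 and 182 on day 1, 61.3, 122 and 119 on day 3 and 37.3, 28.7, 26.8 and 36.7 on day 7. In BM it stood at 209, 295, 140.4, 149.6 and 122 CPM on day 1, 311, 149, 153 and 232 on day 3 and 49.0, 45.7 and 42.1 on day 7. Its AM day 7 libraries remained above all those of day 0, a difference that did not pass (0.65 ± 0.35, edgeR adjusted p = 0.91), and BM_day3.1 was the highest of all 26. It fell by the edgeR test from day 3 to day 7 in AM (−1.64 ± 0.34, adjusted p = 0.0074) and in BM (−2.21 ± 0.37, adjusted p = 7.1e-04). Where a call is said to be lost, the adjusted p beside it is the highest over all the alternatives tried. The AM call was lost without AM_day3.2 (adjusted p of at most 0.086). Its transcript is 96.9% identical to that of Ifi211 over 1363 bases, so the split of reads between the pair is uncertain. Ifih1, which encodes the RNA sensor MDA5, also rose at day 1 and changed by 1.58 ± 0.31 (edgeR adjusted p = 0.0012), from 44.2 ± 6.61 (SD, n = 3) to 132 ± 24.8 CPM (SD, n = 4).

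The IFIT proteins bind foreign RNA and block its translation, and their 4 genes lie together on chromosome 19. Ifit2 was at 3.89, 1.94 and 3.36 CPM on day 0, 44.7, 55.9, 24.2 and 74.0 on day 1, 42.4, 66.0 and 57.6 on day 3 and 3.89, 5.06, 2.84 and 3.55 on day 7 in AM. The BM libraries had it at 173, 364, 201, 34.2 and 67.7 CPM on day 1, 106, 61.4, 79.0 and 80.0 on day 3 and 18.5, 16.8 and 4.53 on day 7. The day 3 libraries lay above the day 7 libraries in both cell types, and AM days 0 and 7 overlapped, both below days 1 and 3. Ifit2 rose at AM day 1 by 4.02 ± 0.62 and was 4.17 ± 0.64 above day 0 at day 3 (edgeR adjusted p = 8.3e-05 and 1.2e-04). Ifit3, which partners IFIT1 and IFIT2, was at 1.29, 1.24 and 2.88 CPM on day 0, 44.6, 57.6, 8.23 and 48.0 on day 1, 20.1, 46.5 and 30.7 on day 3 and 1.96, 0.778, 1.32 and 1.73 on day 7 in AM. Its BM levels were 87.4, 138, 58.7, 19.3 and 44.2 CPM on day 1, 104, 42.4, 67.2 and 63.2 on day 3 and 8.14, 8.37 and 2.06 on day 7. AM_day1.3 was far below the other day 1 libraries but above all of day 0, and the rise was 4.46 ± 0.74 (edgeR adjusted p = 1.9e-04). From day 3 to day 7 Ifit3 had the largest fall among the genes called in AM, −4.49 ± 0.67 (edgeR adjusted p = 1.4e-04), and in BM it changed by −3.47 ± 0.70 (adjusted p = 0.0041). Ifit3 and Ifit3b are 97.8% identical over 1700 bases, so both values are uncertain. Ifit1 rose by 5.61 ± 1.20 at AM day 1 (edgeR adjusted p = 0.0035), while its difference of AM day 7 from day 3, −3.79 ± 1.01, did not pass (adjusted p = 0.057).

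**Figure D2:**
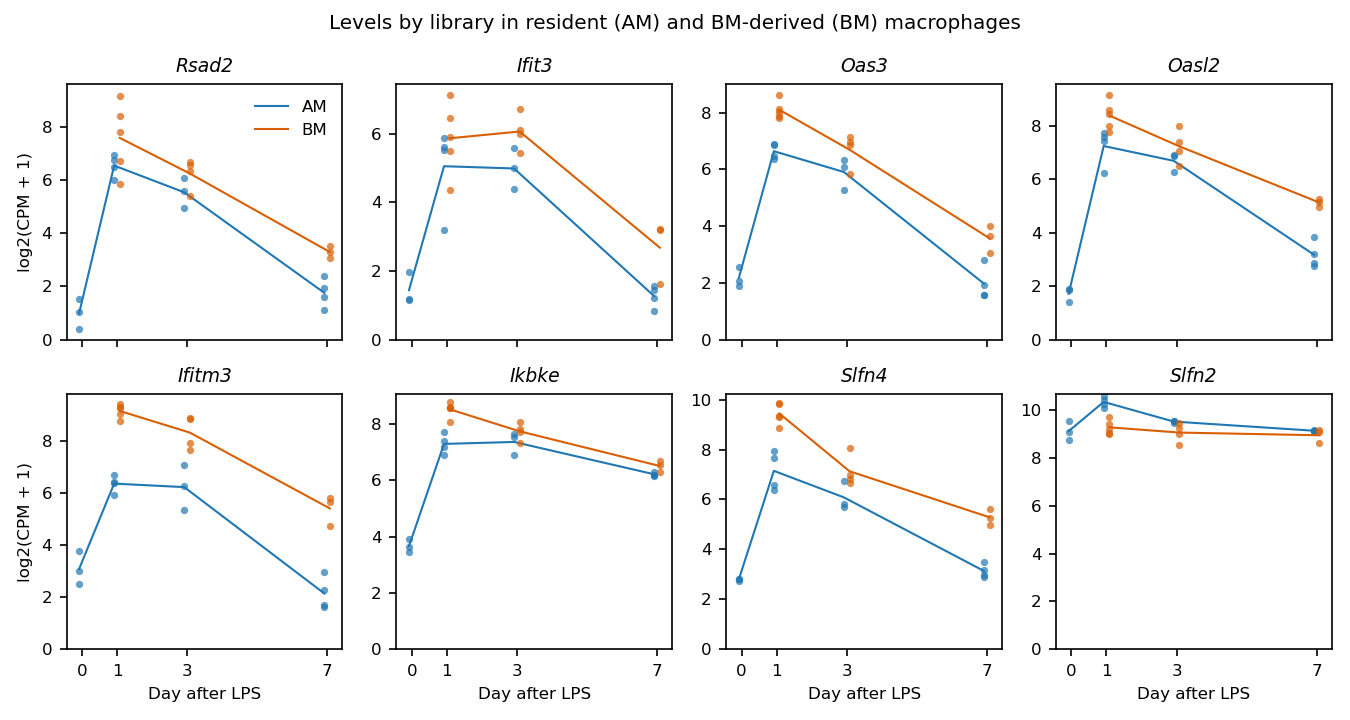
Level of 8 genes in each library as log2(CPM + 1) against the day after LPS, with AM in blue and BM in orange, points for libraries and lines through the mean of the log values. Rsad2, Ifit3, Oas3, Oasl2, Ifitm3 and Slfn4 are lowest in AM at days 0 and 7, Ikbke stays above its day 0 level at AM day 7, and Slfn2 is high in every group.

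The OAS enzymes make short chains of adenosine that switch on RNase L, which cuts RNA, and the OAS-like proteins derive from the same family on chromosome 5. Oas3, the large OAS enzyme, was at 2.70, 3.21 and 4.83 CPM on day 0, 114, 118, 81.9 and 86.6 on day 1, 38.1, 67.3 and 79.5 on day 3 and 2.76, 1.99, 1.98 and 5.99 on day 7 in AM. Among BM it stood at 281, 397, 233, 224 and 259 CPM on day 1, 138, 56.1, 122 and 115 on day 3 and 15.0, 11.5 and 7.31 on day 7. All BM day 1 libraries lay above every AM library and above every later BM library, and AM days 0 and 7 overlapped. Oas3 rose in AM at day 1 by 4.81 ± 0.44 and fell after day 3 by the edgeR test (−4.31 ± 0.39 in AM, −3.25 ± 0.40 in BM), with adjusted p of 2.1e-08, 5.1e-08 and 3.1e-05. In BM it had already fallen between days 1 and 3 (−1.37 ± 0.32, edgeR adjusted p = 0.0034). Oasl2, which encodes an OAS-like protein with ubiquitin-like domains, was at 1.67, 2.59 and 2.68 CPM on day 0, 215, 189.6, 74.4 and 172 on day 1, 76.0, 120.3 and 118 on day 3 and 5.82, 13.5, 6.34 and 8.32 on day 7 in AM. The BM values were 382, 573, 345, 218 and 254 CPM on day 1, 166, 89.0, 134 and 254 on day 3 and 37.4, 30.2 and 34.8 on day 7. The AM day 7 libraries all remained above those of day 0, by 1.88 ± 0.39 (edgeR adjusted p = 0.013), after a rise of 6.14 ± 0.48 at day 1 (adjusted p = 1.4e-09). The day 7 call was lost with the level of Y-linked RNA as a covariate and without AM_day0.1, AM_day0.2, AM_day0.3 or AM_day7.2 (adjusted p of at most 0.13). Oas1a, Oas2 and Oasl1 also rose at AM day 1, by 2.84 ± 0.41, 4.48 ± 1.01 and 3.79 ± 1.02 (largest edgeR adjusted p = 0.024), and Oas1a shares 97.6% identity over 1861 bases with Oas1g. The call of Oas2 was lost without AM_day0.1 and that of Oasl1 without AM_day0.1 or AM_day0.2 (adjusted p of at most 0.066 and 0.16).

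Rsad2 encodes viperin, a radical SAM enzyme that makes a nucleotide which ends viral RNA chains. It was at 1.06, 1.90 and 0.311 CPM on day 0, 121, 107, 63.8 and 88.7 on day 1, 29.9, 67.5 and 46.7 on day 3 and 2.84, 4.18, 1.17 and 2.03 on day 7 in AM. BM levels of the gene were 339.6, 571, 222, 56.4 and 105 CPM on day 1, 80.4, 41.3, 94.1 and 101 on day 3 and 8.76, 10.6 and 7.31 on day 7. Every AM library of day 1 or 3 lay above every AM library of day 0 or 7, and BM_day1.4 lay within the BM day 3 values. Rsad2 had the largest rise of the 46 at AM day 1, 6.41 ± 0.77 (edgeR adjusted p = 4.3e-06), and fell from day 3 to day 7 by the same test in AM (−4.22 ± 0.63, adjusted p = 1.9e-04) and BM (−3.15 ± 0.65, adjusted p = 0.0058). Its neighbour on chromosome 12, the nucleotide kinase gene Cmpk2, rose by 4.92 ± 1.08 at AM day 1 (edgeR adjusted p = 0.0040).

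Bst2 encodes tetherin, which holds budding virus at the cell surface. In AM it was at 33.4, 30.2 and 49.2 CPM on day 0, 336, 437, 117 and 258 on day 1, 181, 173 and 162 on day 3 and 59.2, 63.1, 58.7 and 56.5 on day 7. In BM it was at 75.1, 156, 64.7, 77.5 and 80.0 CPM on day 1, 71.0, 123, 119 and 229 on day 3 and 85.9, 93.5 and 95.3 on day 7. It was the one gene of its class with a higher mean in AM than in BM at day 1, where BM_day1.2 lay above the lowest AM library. The rise at AM day 1 was 2.93 ± 0.39 and the difference of BM from AM at day 1 was −1.66 ± 0.31 (edgeR adjusted p = 9.0e-06 and 1.7e-04). In BM its change from day 3 to day 7 was −0.57 ± 0.35 and did not pass (edgeR adjusted p = 0.39), while the AM change, −1.53 ± 0.35, did (adjusted p = 0.014). The AM call was lost without AM_day3.1, AM_day3.2, AM_day7.3 or AM_day7.4, with an adjusted p of at most 0.46.

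The IFITM proteins stop viruses from fusing with endosomal membranes, and the 4 genes lie on chromosome 7. Ifitm3 was at 4.58, 7.02 and 12.5 CPM on day 0, 103, 81.9, 84.1 and 59.2 on day 1, 39.6, 131 and 75.3 on day 3 and 2.04, 6.76, 3.86 and 2.23 on day 7 in AM. The BM libraries had it at 610.4, 511, 427, 672 and 621 CPM on day 1, 465.5, 237, 199.5 and 449.6 on day 3 and 49.1, 55.1 and 25.4 on day 7. At every shared day all BM libraries lay above all AM libraries, with log2 differences of 2.79 ± 0.40, 2.04 ± 0.44 and 3.53 ± 0.44 at days 1, 3 and 7 (edgeR adjusted p = 8.8e-06, 0.0098 and 1.5e-05). Ifitm1 was at 0.351, 0.927 and 1.16 CPM on day 0, 22.8, 38.4, 16.4 and 6.08 on day 1, 3.42, 5.96 and 2.07 on day 3 and 0.0727, 0.876, 0.812 and 1.42 on day 7 in AM. Its BM values were 65.2, 71.9, 146, 68.5 and 49.0 CPM on day 1, 192, 19.7, 36.5 and 10.5 on day 3 and 6.65, 3.101 and 5.25 on day 7. It was higher in BM than in AM at day 3 by 4.08 ± 0.94 (edgeR adjusted p = 0.013), where BM_day3.1, the library with high collagen RNA, held its highest value. It changed in BM from day 3 to day 7 by −3.69 ± 0.92 (adjusted p = 0.020). The second call was lost without BM_day3.1 or any 1 of the BM day 7 libraries, with an adjusted p of at most 0.17, and the first without AM_day3.1 or AM_day3.3, with at most 0.18. Ifitm2 was at 7.22, 7.11 and 7.15 CPM on day 0, 35.3, 26.9, 24.6 and 15.1 on day 1, 36.8, 29.4 and 21.9 on day 3 and 16.9, 21.2, 12.7 and 12.4 on day 7 in AM. Among BM it stood at 30.8, 28.3, 22.4, 28.9 and 25.5 CPM on day 1, 169, 30.2, 7.66 and 92.6 on day 3 and 30.6, 38.8 and 28.8 on day 7. It was the 1 gene of the list called higher at BM day 3 than at BM day 1 (1.46 ± 0.51, edgeR adjusted p = 0.036), with overlapping groups and BM_day3.1 highest, and the call was lost without BM_day3.1, BM_day3.4 or any 1 of the BM day 1 libraries (adjusted p of at most 0.33). Ifitm6 was at 0.225, 0.0352 and 0.254 CPM on day 0, 3.48, 0, 0 and 0 on day 1, 0, 1.19 and 0 on day 3 and 0.872, 0, 0.507 and 0 on day 7 in AM, and so at most 3.48 CPM. Its BM values, 31.9, 10.01, 14.8, 24.3 and 30.0 CPM on day 1, 74.8, 16.2, 9.92 and 3.84 on day 3 and 3.09, 0.653 and 0.824 on day 7, were higher at day 1 than those of AM in every library (4.65 ± 1.67, edgeR adjusted p = 0.038), a call that was lost without 1 of AM_day1.2, AM_day1.3, AM_day1.4, BM_day1.1 or BM_day1.5 (adjusted p of at most 0.14). Ifitm2 shares 40.9% of its exon bases with Gm45717 on the same strand and is 97.0% identical to Gm11951 over 432 bases. Ifitm1 is 97.5% identical to Gm7676 over 319 bases, so the values of both are uncertain. BM_day3.1 also had the highest neutrophil marker sum of all libraries, 3521 CPM. The part of neutrophils, or of the cells that gave the collagen RNA, in the values of BM_day3.1 was not tested.

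ISG15 is a small protein that is attached to others like ubiquitin, and USP18 removes it and also holds back the interferon receptor. Usp18 was at 1.67, 1.73 and 1.16 CPM on day 0, 31.1, 40.8, 9.37 and 30.0 on day 1, 5.52, 16.1 and 14.8 on day 3 and 0.618, 1.70, 0.355 and 0.508 on day 7 in AM. BM levels of the gene were 59.0, 92.1, 67.9, 35.8 and 31.1 CPM on day 1, 0, 23.4, 20.96 and 28.8 on day 3 and 5.46, 4.82 and 7.31 on day 7. The AM day 3 and day 7 libraries did not overlap, and BM_day3.1 had 0 counts. Usp18 rose at AM day 1 by 4.19 ± 1.07 and fell from day 3 to day 7 in AM by the edgeR test (−3.91 ± 0.97), with adjusted p of 0.015 and 0.033. The rise was lost without any 1 of the day 0 libraries (adjusted p of at most 0.085). The fall was lost without AM_day3.2, AM_day3.3, AM_day7.1, AM_day7.3 or AM_day7.4 (adjusted p of at most 0.4). Isg15 itself rose by 4.88 ± 0.47 at AM day 1 (edgeR adjusted p = 6.0e-08), from 3.98, 7.13 and 8.70 CPM to 181, 308, 101 and 189 CPM. Parp14, a mono-ADP-ribosyltransferase, was at 54.8, 57.3 and 42.1 CPM on day 0, 303, 252, 204 and 266 on day 1, 119, 149 and 153 on day 3 and 71.6, 82.8, 82.8 and 81.3 on day 7 in AM. In BM it was at 564, 827, 611, 217 and 277 CPM on day 1, 312, 214, 219.8 and 304 on day 3 and 137, 132 and 119 on day 7. It rose at AM day 1 by 2.32 ± 0.31 (edgeR adjusted p = 1.2e-05), and its AM libraries of day 7, all above those of day 0, differed from day 3 by −0.82 ± 0.29, which did not pass (adjusted p = 0.27). Ikbke encodes IKKε, the kinase that acts on IRF3 and IRF7. In AM it was at 9.84, 14.1 and 11.4 CPM on day 0, 169, 208, 145 and 117 on day 1, 200.1, 186 and 119 on day 3 and 72.0, 73.0, 70.5 and 78.5 on day 7. The BM libraries had it at 381, 387, 383, 446 and 271 CPM on day 1, 269.8, 227, 161 and 212 on day 3 and 92.2, 77.4 and 103 on day 7. Every AM library after LPS lay above every day 0 library, and at day 7 the difference from day 0 was 2.64 ± 0.24 (edgeR adjusted p = 9.6e-08), after 3.76 ± 0.25 at day 1 and 3.84 ± 0.26 at day 3. The genes Dtx3l and Parp9, whose proteins form a pair, share 458 exon bases on opposite strands, and without a stated strand setting for the counting their reads may be mixed.

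The Schlafen genes lie on chromosome 11 and act on growth and RNA in immune cells. Slfn2, needed for the quiescence of T cells and monocytes, was at 434, 544 and 744 CPM on day 0, 1402, 1536, 1113 and 1235 on day 1, 705, 762 and 757 on day 3 and 559, 558, 586 and 567 on day 7 in AM. Among BM it stood at 604, 850.3, 518, 687 and 528 CPM on day 1, 704, 521, 374 and 609.7 on day 3 and 540.1, 579 and 392 on day 7. The AM day 1 libraries lay above all libraries of any other group, and the rise from day 0 was 1.20 ± 0.21 (edgeR adjusted p = 3.6e-04). At day 3 AM Slfn2 was −0.83 ± 0.21 from day 1, just short of the threshold (edgeR adjusted p = 0.053). Slfn4, found in monocytes and macrophages, was at 5.61, 6.10 and 6.10 CPM on day 0, 248, 202, 82.3 and 95.2 on day 1, 51.0, 105 and 55.6 on day 3 and 8.03, 6.42, 6.80 and 10.3 on day 7 in AM. BM levels of the gene were 647, 935, 909, 637 and 464 CPM on day 1, 268, 98.8, 127 and 112 on day 3 and 30.5, 37.3 and 48.0 on day 7. Every BM day 1 library lay above every other library of both cell types, and the BM change from day 1 to day 3 was −2.25 ± 0.34 (edgeR adjusted p = 2.7e-05). The change from there to day 7 was −1.97 ± 0.38 (edgeR adjusted p = 0.0031). Slfn1 was at 3.33, 4.70 and 7.85 CPM on day 0, 58.8, 109, 36.1 and 31.5 on day 1, 21.1, 51.6 and 44.7 on day 3 and 2.44, 2.68, 2.94 and 3.45 on day 7 in AM. In BM it was at 75.6, 131, 142, 76.3 and 66.4 CPM on day 1, 101, 56.9, 66.8 and 135 on day 3 and 7.37, 12.1 and 9.37 on day 7. It rose in AM at day 1 by 3.48 ± 0.49, and from day 3 to day 7 it changed by −3.77 ± 0.46 in AM and −3.23 ± 0.49 in BM (edgeR adjusted p = 2.3e-05, 5.7e-06 and 2.6e-04). Slfn4 is 96.3% identical to Slfn3 over 1172 bases and Slfn2 95.3% over 379, so reads may be split among them.

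Of the remaining genes, Rtp4 encodes a membrane receptor chaperone that interferon induces. Its AM values were 1.57, 1.57 and 1.27 CPM on day 0, 88.5, 98.5, 39.8 and 73.9 on day 1, 22.8, 34.8 and 45.1 on day 3 and 5.34, 3.26, 2.44 and 5.89 on day 7. The BM libraries had it at 57.6, 86.3, 11.6, 51.2 and 33.8 CPM on day 1, 82.7, 70.1, 64.0 and 94.8 on day 3 and 8.71, 7.75 and 4.63 on day 7. Rtp4 rose at AM day 1 by 5.67 ± 0.61 and fell from day 3 to day 7 in both cell types by the edgeR test (−3.02 ± 0.49 in AM, −3.47 ± 0.54 in BM), with adjusted p of 3.8e-07, 3.6e-04 and 3.7e-04. Sp100, a protein of nuclear bodies that restrict incoming viral genomes, was at 43.6, 51.2 and 54.1 CPM on day 0, 102, 102, 89.2 and 99.0 on day 1, 66.0, 92.9 and 92.8 on day 3 and 39.9, 36.2, 31.4 and 40.8 on day 7 in AM. Among BM it stood at 166, 289, 159, 161 and 159 CPM on day 1, 37.1, 87.0, 168 and 165 on day 3 and 69.0, 73.2 and 72.8 on day 7. All 5 BM day 1 libraries lay above all AM libraries, by 0.93 ± 0.29 at day 1 (edgeR adjusted p = 0.016), and none of its changes within AM passed. Ifi44 was at 0.0501, 0.247 and 0 CPM on day 0, 0, 1.60, 2.60 and 0.847 on day 1, 2.72, 4.00 and 3.24 on day 3 and 0, 0, 0.0507 and 0 on day 7 in AM. It had 128 counts in the 3 AM day 3 libraries together and 1 in the 4 AM day 7 libraries, a ratio of 259 after scaling for library size with an exact 95% interval from 45.7 to 10318 that covers counting error alone. No fitted fold change is given for it. Xaf1, which encodes a partner of the apoptosis inhibitor XIAP, rose by 3.48 ± 0.61 at AM day 1, and Ifi47, an immunity-related GTPase gene, by 4.30 ± 0.52 (edgeR adjusted p = 3.6e-04 and 2.3e-06). Phf11d rose by 3.29 ± 0.69 and Ifi27l2a by 2.19 ± 0.52 (edgeR adjusted p = 0.0025 and 0.0081), the latter a call that was lost without AM_day0.1 or AM_day0.2 (adjusted p of at most 0.071).

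In resident cells the calls for a fall came between days 3 and 7, though most of the list was already somewhat lower at day 3. Between AM day 1 and day 3, 0 of the 46 genes were higher and 0 lower (0.624% and 0.210% of all genes). By comparison, 12 were lower and 0 higher at an unadjusted p under 0.05 by edgeR, and DESeq2 called 4. Of the 46 fitted changes 37 were below 0, with a median of −0.67 against 0.04 over all genes. Between AM day 3 and day 7, 21 were lower and 0 higher (1.35% and 0.233% of all genes). All 46 fitted changes were below 0, with a median of −1.80 against 0.01 over all genes. As a share of the group mean, the median gene kept 63.0% of its day 1 level at day 3 and then 28.9% of its day 3 level at day 7. The list held 13 genes with under 10% of the day 3 level left at day 7 in AM and 13 with over 50% left. The 21 were the sensors Zbp1 and Ifi204, Ifit2 and Ifit3, Oas1a, Oas2, Oas3 and Oasl2, the effectors Mx1, Rsad2, Cmpk2, Bst2 and Ifitm3, then Isg15, Usp18 and Ikbke, the Schlafen genes Slfn1, Slfn4 and Slfn5, and Rtp4 and Ifi47. With Y-linked RNA as a covariate 12 of the list were called, and in a fit to the 2 groups alone 39. The covariate ended the calls of Zbp1, Ifi204, Oas2, Mx1, Rsad2, Cmpk2, Bst2, Usp18 and Ifi47. Y-linked RNA varied within groups mainly in BM day 3, so the covariate cannot separate sex from day in AM. Without AM_day3.2, 15 of the list were called, the fewest with any 1 library left out. Leaving out 1 library ended the calls of Oas1a (adjusted p of at most 0.12 over all alternatives), Oas2 (0.57), Mx1 (0.22) and Cmpk2 (0.60), beside those of Ifi204, Bst2 and Usp18 given above.

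For 9 genes the mean at AM day 3 was at or above that at day 1, namely Ifit2, Ifit3b, Oas2, Mx1, Ifitm2, Ifitm3, Parp9, Ikbke and Ifi44. Without AM_day1.3 the number was 7, with Ifit2 at 95.1% and Parp9 at 89.6% of their day 1 means. The day 7 levels of Ifit2, Oas2, Mx1, Ifitm3 and Ikbke were called lower than those of day 3, and those of Ifit3b, Ifitm2, Parp9 and Ifi44 were not. Ifit2 stood at 111% of its day 1 mean on day 3 and at 6.94% of its day 3 mean on day 7. Oas2 stood at 122% and 8.02%, Mx1 at 142% and 10.8%, Ifitm3 at the level of day 1 and 4.54%, and Ikbke at 105% and 43.7%. These shares of group means share the day 3 libraries and are a description. In AM_day3.1, AM_day3.2 and AM_day3.3 Mx1 was at 16.01, 45.8 and 13.85 CPM, against a day 1 mean of 17.8 CPM. Ifitm3 was at 39.56, 131.2 and 75.29 CPM there, against a day 1 mean of 81.98 CPM. For Mx1 and Ifitm3 AM_day3.2 alone thus lay above the day 1 mean, and shares without this library were not computed. AM_day3.2 had the highest sum of monocyte-derived and tissue macrophage markers in AM, 8813 CPM. The part of such cells in the shares of Mx1 and Ifitm3 was not tested. For each other gene of the 9, more than 1 day 3 library lay above its day 1 mean. By contrast Isg15 stood at 33.4% of its day 1 mean on day 3, with every day 3 library below every day 1 library, and its change of −1.58 ± 0.40 missed the threshold (edgeR adjusted p = 0.057). Ifitm1 had the lowest share left at day 3, 18.3%, and its change of −2.45 ± 0.87 did not pass (adjusted p = 0.24). Leaving aside Ifitm6, which had counts in 1 of the 3 AM day 3 libraries, the genes that kept most of their day 3 level at AM day 7 were Samd9l (86.6%), Trim30a (78.9%), Slfn2 (76.6%), Ifih1 (76.5%) and Ifi35 (75.1%).

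In BM some genes of the list were lower at day 3 than at day 1, at a share not far from that of all genes, and more were lower at day 7. Between BM day 1 and day 3, 10 of the 46 genes were lower and 1 higher, where 15.2% of all genes were lower and 10.6% higher. The 10 were Ddx58, Oas3, Oasl2, Rsad2, Isg15, Dtx3l, Parp14, Ikbke, Slfn4 and Samd9l. Between BM day 3 and day 7, 20 were lower and 0 higher (0.898% and 3.09% of all genes). All 46 fitted changes were below 0, with a median of −1.77 against 0.21 over all genes. The median gene kept 61.3% of its day 1 mean at day 3 and 29.3% of its day 3 mean at day 7, with 4 genes under 10% and 12 over 50%. The 4 were Ifit3, Ifitm1, Ifitm6 and Rtp4. Without BM_day3.1 Rtp4 alone was under 10%, at 9.21%, with Ifit3 at 10.8%, Ifitm6 at 15.2% and Ifitm1 at 22.5%. The median share left after each step was thus close in AM and BM, and their difference was tested only for day 3 to day 7. Those called lower were Dhx58, Zbp1, Ifi204, Ifit2, Ifit3, Oas3, Oasl2, Mx1, Rsad2, Ifitm1, Ifitm3, Isg15, Dtx3l, Parp14, Ikbke, Slfn1, Slfn4, Slfn5, Rtp4 and Ifi47. A fit to BM day 3 and day 7 alone called 6, and one to BM day 1 and day 3 alone called 5 of the list. Leaving out 1 library ended the calls of Oasl2 (adjusted p of at most 0.050 over all alternatives), Rsad2 (0.068), Dtx3l (0.10) and Samd9l (0.21) for the first step. It ended those of Dhx58 (0.31), Ifit2 (0.10), Mx1 (0.096) and Parp14 (0.14) for the second, beside those of Ifitm1 and Ifitm2 given above.

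**Figure D3:**
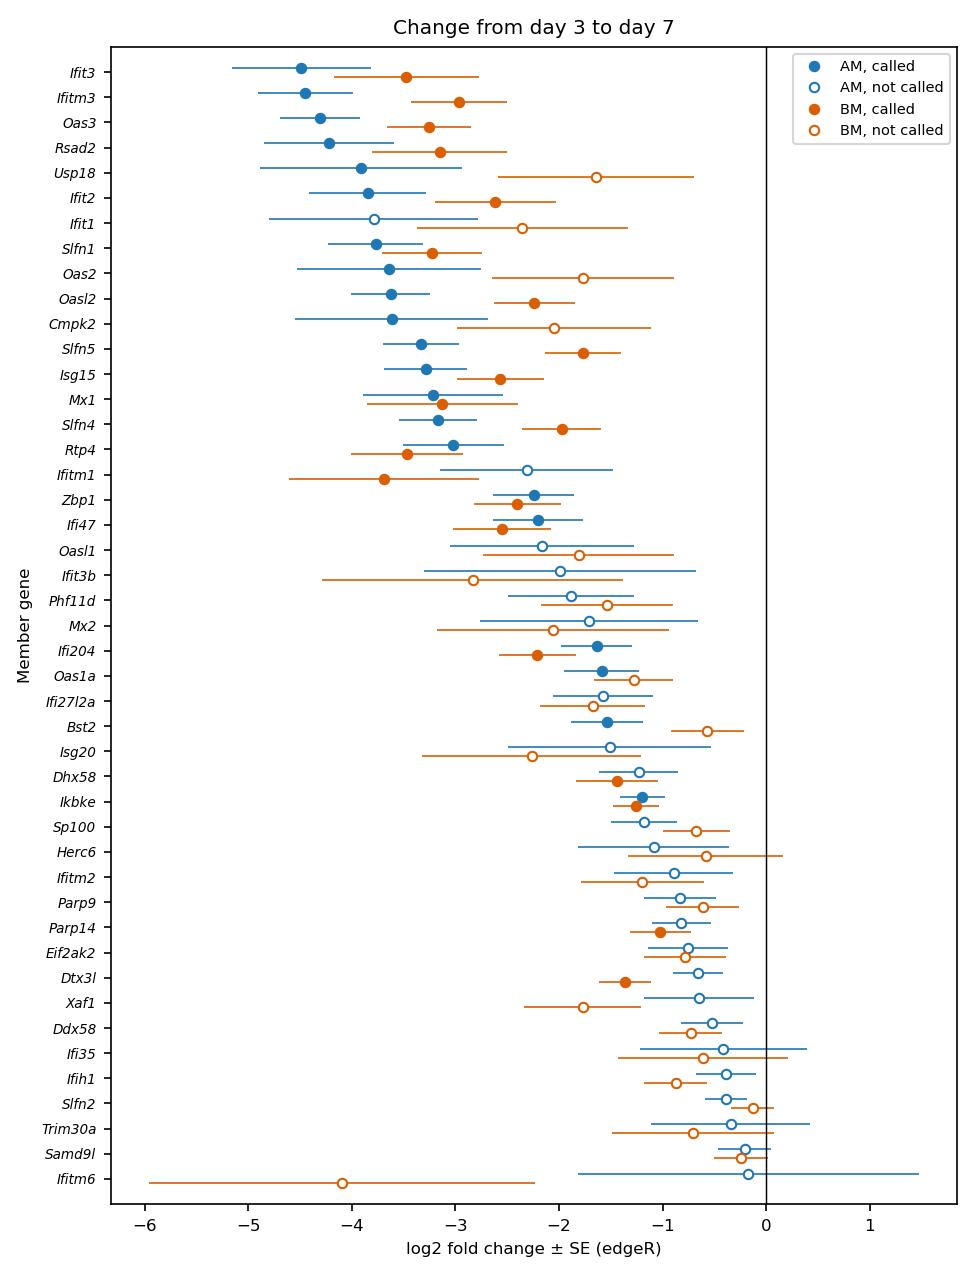
Log2 fold change from day 3 to day 7 (x axis, ± SE from edgeR) for 45 of the 46 genes (y axis, ordered by the AM value), with AM in blue and BM in orange and filled points for calls at an adjusted p under 0.05. Ifi44 is left out because it has 1 count in AM day 7, and every point lies below 0, with Ifit3, Ifitm3, Oas3 and Rsad2 at or under −4.22 in AM.

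The size of the day 3 to day 7 change was compared between the cell types by the interaction term. Of the 46 genes, 0 were higher and 0 lower (0.338% and 0.0233% of all genes), 6 were at an unadjusted p under 0.05 by edgeR, and DESeq2 called 0. The smallest adjusted p was that of Slfn5 (1.56 ± 0.49, edgeR adjusted p = 0.18), which was at 85.3 ± 24.7 CPM (SD, n = 3) in AM day 3, 8.49 ± 2.12 (n = 4) in AM day 7, 184 ± 70.5 (n = 4) in BM day 3 and 54.0 ± 3.53 (n = 3) in BM day 7. For Bst2, called in AM alone, the interaction was 0.97 ± 0.49 and did not pass (edgeR adjusted p = 0.46). A difference in decay between AM and BM was therefore not detected for any single gene, which does not show that the 2 decline alike.

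BM carried higher levels than AM for a part of the list at each day. At day 1, 18 genes were higher in BM and 2 lower, Bst2 and Slfn2, where 15.2% of all genes were higher and 13.8% lower. The 18 were Ddx58, Ifit2, Oas2, Oas3, Oasl2, Isg20, Mx1, Rsad2, Ifitm1, Ifitm3, Ifitm6, Dtx3l, Parp14, Ikbke, Slfn4, Slfn5, Ifi27l2a and Sp100. Their levels differed from 0.83 ± 0.27 in Ddx58 to 4.65 ± 1.67 in Ifitm6, and Slfn4 differed by 2.20 ± 0.34 (largest edgeR adjusted p = 0.049, that of Isg20). The levels of Zbp1 (0.02 ± 0.34), Ifi204 (0.07 ± 0.30) and Isg15 (−0.27 ± 0.33) did not pass. Without AM_day1.3, 12 genes of the list were called in place of 20. Leaving out 1 library ended the calls of Ddx58 (adjusted p of at most 0.089 over all alternatives), Oas2 (0.086), Oasl2 (0.051), Isg20 (0.15), Mx1 (0.068), Rsad2 (0.13) and Ifitm1 (0.28), beside that of Ifitm6. BM day 1 has library identifiers with a number of their own and a higher neutrophil marker sum (570 to 1395 CPM) than AM day 1 (109 to 598 CPM), and the part of either was not tested. BM day 1 also has less Y-linked RNA, 7.75 to 38.4 CPM against 191 to 217 CPM in AM day 1. Sex as read from RNA therefore cannot be told apart from cell type in this comparison.

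At day 3, 3 genes were higher in BM and 0 lower (0.997% and 2.99% of all genes): Ifitm1, Ifitm3 and Dtx3l, the last by 0.90 ± 0.25 (edgeR adjusted p = 0.037). Without AM_day3.1 or without AM_day3.3 none was called, with an adjusted p over all alternatives of at most 0.18 for Ifitm3 and 0.20 for Dtx3l, and DESeq2 called 10. At day 7, 6 were higher and 0 lower (1.48% and 0.286% of all genes). They were Ifitm3 (3.53 ± 0.44), Slfn5 (2.67 ± 0.36), Slfn4 (2.30 ± 0.37), Oasl2 (2.01 ± 0.37), Oas3 (1.86 ± 0.37) and Slfn1 (1.74 ± 0.44), with a largest edgeR adjusted p of 0.031. The call of Slfn1 was lost without any 1 of the AM day 7 libraries, BM_day7.2 or BM_day7.3 (adjusted p of at most 0.18). For all 6, the 3 BM libraries lay above the 4 AM libraries. Without BM_day3.1, which is in neither group, 10 were called at day 7. The median log2 difference of BM from AM over the 46 was 0.88, 0.62 and 0.78 at days 1, 3 and 7, against 0.06, −0.07 and 0.03 over all genes.

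**Figure D4:**
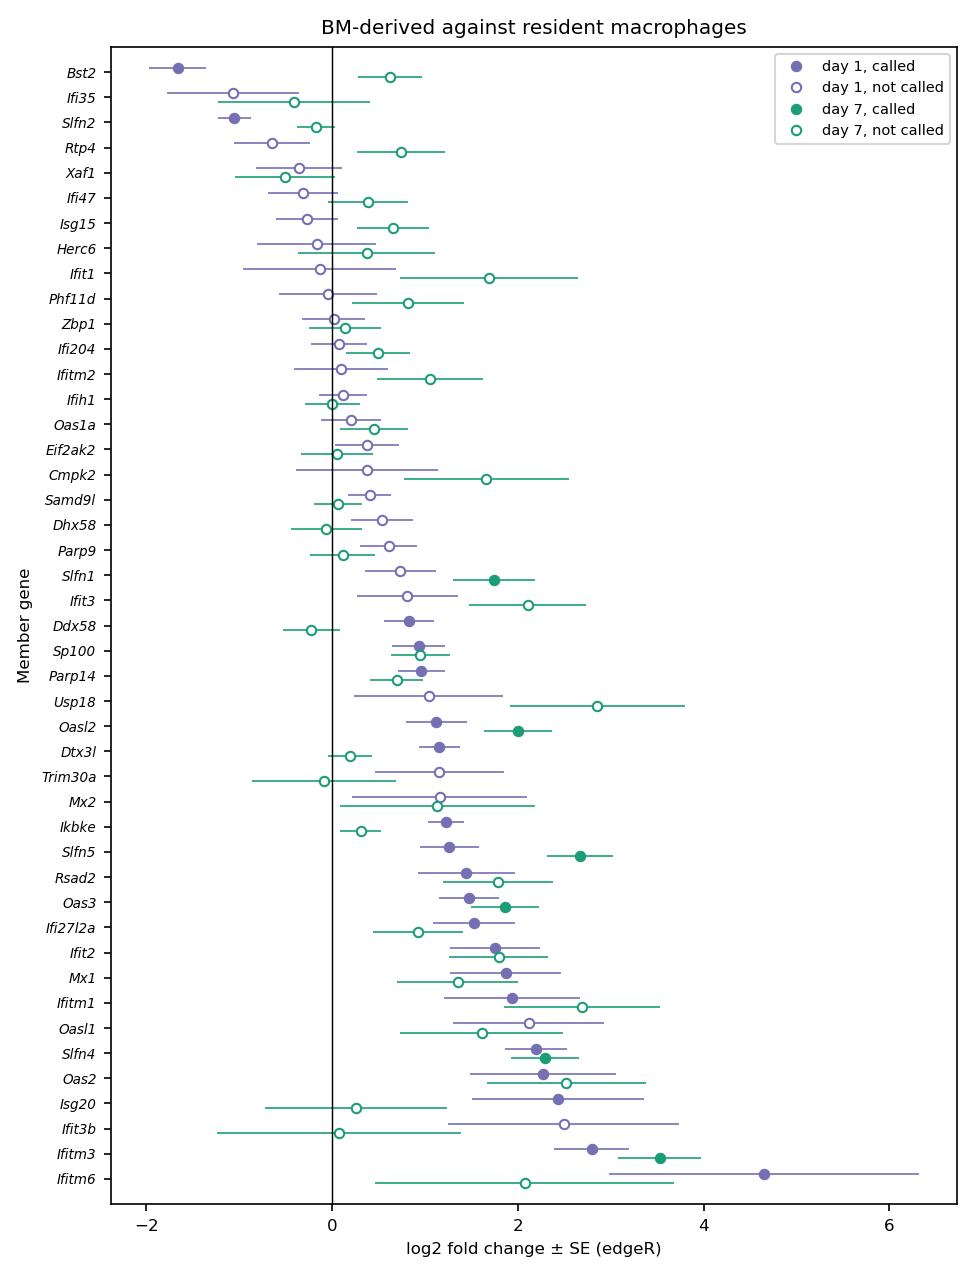
Log2 difference of BM from AM (x axis, ± SE from edgeR) at day 1 (purple) and day 7 (green) for 45 of the 46 genes (y axis, ordered by the day 1 value), with filled points for calls at an adjusted p under 0.05. Ifitm3 is called at both days at 2.79 and 3.53, Bst2 and Slfn2 are called below 0 at day 1, and Ifi44 is left out because of its 1 count in AM day 7.

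The members mostly moved together across libraries. Over the 26 libraries, the correlation of each gene's log2(CPM + 1) with the median of the other 45 had a median of 0.85 and ran from 0.18 to 0.98, with 27 genes over 0.8. Rsad2 (0.98), Oas3 (0.98) and Oasl2 (0.97) were the most alike to the rest. Ifi35 (0.18), Trim30a (0.31) and Slfn2 (0.41) were under 0.5. Within the 14 AM libraries alone Ifi35, Trim30a and Slfn2 stood at 0.73, 0.84 and 0.88, and Ifi35 and Trim30a had 0 and 0.165 CPM in BM_day3.1. These values describe libraries that share depth and groups.

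Interferon genes themselves were nearly silent. Of 21 interferon genes listed, 2 passed the filter and 0 were called in any comparison. Ifnb1 was at 0 in all but 3 libraries and at most 1.44 CPM, in AM_day0.3. Ifng was highest in BM_day1.3, and in the 5 BM day 1 libraries it was at 1.71, 0.538, 10.5, 2.75 and 0 CPM. The counts for the lists that follow stand beside 3.22% of all genes higher and 3.06% lower at AM day 1. Of 6 receptor genes, 3 rose and 1, the interferon gamma receptor gene Ifngr1, fell at AM day 1 (−1.28 ± 0.24, edgeR adjusted p = 7.0e-04). Ifnar1, a chain of the type I receptor, was at 336, 373, 311, 262 and 251 CPM in BM day 1 and 105, 88.0, 96.4 and 85.3 CPM in AM day 1. It was higher in BM at days 1, 3 and 7, by 1.71 ± 0.17, 1.03 ± 0.19 and 1.67 ± 0.19 (largest edgeR adjusted p = 0.0028), with no overlap between the groups.

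Irf7, the factor that amplifies type I interferon and is itself interferon-induced, was at 7.22, 9.26 and 4.58 CPM on day 0, 236, 329.9, 234 and 209 on day 1, 79.1, 177 and 206 on day 3 and 9.63, 8.22, 9.18 and 7.41 on day 7 in AM. BM levels of the gene were 719, 830.1, 508, 729 and 759.9 CPM on day 1, 329, 151, 334 and 448 on day 3 and 41.0, 46.2 and 21.4 on day 7. Its AM libraries of days 1 and 3 all lay above those of days 0 and 7, and its BM day 1 libraries above all others. The change was 5.16 ± 0.40 at AM day 1, then −4.16 ± 0.34 from day 3 to day 7 in AM and −3.12 ± 0.36 in BM (edgeR adjusted p = 1.4e-09, 1.3e-08 and 7.5e-06). BM exceeded AM in Irf7 by 1.49 ± 0.29 at day 1 and 2.07 ± 0.32 at day 7 (edgeR adjusted p = 2.8e-04 and 1.8e-04). Among 8 inhibitors, 3 rose at AM day 1, with Socs1 at 3.93 ± 0.97 and Socs3 at 2.15 ± 0.27 (edgeR adjusted p = 0.011 and 3.9e-06). Of 14 GBP and IRG genes, GTPases induced mainly by interferon gamma, 12 rose at AM day 1 and 11 were above day 0 at day 3, where 1.78% of all genes were. From day 3 to day 7, 6 of the 14 fell in AM and 9 in BM, where 1.35% and 0.898% of all genes did. Of 11 adaptors and kinases that lead to interferon, 1 rose (Tbk1, 0.94 ± 0.29) and 1 fell (Ticam2, −1.09 ± 0.31) at AM day 1 (edgeR adjusted p = 0.047 and 0.034), close to the share of all genes. Of 3 interferon-induced chemokine genes, 2 rose at AM day 1, and Cxcl9 was above day 0 at day 7 as well, as were 0.408% of all genes (4.15 ± 0.73, edgeR adjusted p = 0.0040).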

How the data were processed

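Messenger RNA of sorted macrophages was sequenced in 26 libraries. Per the submitters' processing notes, FastQC 0.11.9, Trimmomatic 0.39, HISAT2 2.1.0 and featureCounts 2.0.0 were used with genome build GRCm38, and the authors deposited 1 table of raw counts per gene; the strand setting of the counting is not given in the sources used here. Symbols came from the GENCODE M21 annotation, which named 55227 of 55487 identifiers. The 46 genes, the lists and the tests were chosen with earlier results of these data known.

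Counts were filtered with filterByExpr (minimum count 10), scaled by TMM and tested with edgeR 4.0.16 (quasi-likelihood, robust) in R 4.3.3, with 1 coefficient for each of 7 groups over all 26 libraries. A gene was called at a Benjamini-Hochberg adjusted p under 0.05 over 17143 genes. The SE is the absolute log2 fold change divided by the square root of F. CPM are counts relative to the TMM-scaled library size, as edgeR gives them. The fit was also run on simulated counts with known folds, and the outcome is not used here. Near-identical transcripts were searched with BLAST+ 2.17.0 (at least 95% over at least 100 bases). The alternatives were DESeq2 1.42.0, its size factors, no filter, a fit restricted to the groups of each comparison, the replicate number as a block, Y-linked RNA as a covariate, the fit without BM_day1.3 and BM_day3.1, and each library left out. Every library's value is given for 20 genes: in each class the gene with the highest mean CPM and the one with the largest change of AM day 7 from day 3, and in each comparison the called genes with the largest rise and the largest fall, changes being ranked among genes whose higher group averages 5 CPM or more. From each pathway list (interferon ligands, receptors, adaptors, inhibitors, GBP and IRG genes, chemokines) at most 2 called genes per comparison are named by the same size rule, Irf7 comes by that rule from a list of signalling genes whose counts are not reported here, and levels of Ifnb1 and Ifng are named beside it.

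Total counts of 9176202 to 80816742 per library limit the precision of low genes, and intervals on counts cover counting error alone. The number of genes with any count did not follow the total in every library. BM_day3.1 had 9126 such genes at 11382242 reads, and AM_day7.4 had 16379 at 9950513 reads. The replicate numbers of the sample titles were checked for pairing and do not pair the libraries, and no 2 libraries agreed within sampling noise (chi-square per degree of freedom 7.85 to 506). The numbers in the column names of the counts differ for some libraries, and pairing by them was not tested.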

Additional observations from a re-analysis of the deposited data

Results flagged for a closer look

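For the 20 genes with every library's value and the median over the 46 genes, 84 groups of 4 or 5 libraries were examined on log2(CPM + 1) for a library whose gap to the nearest other, as a share of the group's range, passed Dixon's 95% critical value. Of these, 6 were flagged, and chance flags about 1 in 20 groups. Ifit3 in AM_day1.3 was 8.23 CPM against 44.6 to 57.6 CPM in the other AM day 1 libraries. Parp14 in AM_day7.1 was 71.6 CPM against 81.3 to 82.8 CPM. Usp18 in BM_day3.1 was 0 CPM against 20.96 to 28.8 CPM. Sp100 in BM_day1.2 was 289 CPM against 159 to 166 CPM, and Bst2 in the same library was 156 CPM against 64.7 to 80.0 CPM. Ifitm6 in AM_day1.1 was 3.48 CPM, where the other AM day 1 libraries had 0.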

How the results depend on the processing

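No value of the 46 genes that was called in the main fit or in an alternative changed direction between them. Changes of sign among values called in neither were not counted. Of 4455 values of called genes under the alternatives, 4122 kept their call and direction and 333 lost the call. Of the 30 genes called at AM day 1 against day 0, 26 kept the call in all 33 alternatives, as did 17 of 22 at AM day 3 against day 0, 11 of 21 at AM day 7 against day 3, 4 of 11 at BM day 3 against day 1, 6 of 20 at BM day 7 against day 3, 11 of 20 for BM against AM at day 1, 0 of 3 at day 3 and 5 of 6 at day 7. With the compared groups fitted alone, 38 were called at AM day 3 against day 0, 11 at AM day 7 against day 0, 3 at AM day 3 against day 1, 39 at AM day 7 against day 3, 5 at BM day 3 against day 1, 6 at BM day 7 against day 3, and 0 and 19 for BM against AM at days 3 and 7. With Y-linked RNA as a covariate, 1 was called at AM day 7 against day 0 and 12 at AM day 7 against day 3. At AM day 3 against day 1, DESeq2's size factors gave 2, no filter 2, DESeq2 4, and the fit without BM_day1.3 and BM_day3.1 3. For BM against AM, DESeq2 gave 10 at day 3 and 10 at day 7, and the fit without BM_day1.3 and BM_day3.1 gave 11 at day 7. The cause of these shifts was not tested. The replicate numbers of the sample titles did not pair the libraries: same-numbered libraries had correlations of their deviations from -0.113 to 0.0928, and 2 of 26 correlated best with their own number. With the replicate block, 30, 19 and 2 genes were called at AM days 1, 3 and 7 against day 0, 1 at AM day 3 against day 1, 18 at AM day 7 against day 3, 10 and 19 for the BM steps, 17, 3 and 5 for BM against AM, and 0 in the interaction. Leaving out each library in turn gave 26 to 38, 17 to 27 and 1 to 2 at AM days 1, 3 and 7 against day 0, 0 to 2 at AM day 3 against day 1, 15 to 24 at AM day 7 against day 3, 8 to 13 and 15 to 25 for the BM steps, 12 to 23, 0 to 4 and 5 to 10 for BM against AM, and 0 in the interaction. Depth limits genes near 0, such as Ifi44 and Ifitm6 in AM. Chosen after seeing the data, leaving out AM_day1.3 moved the number of genes at or above their AM day 1 mean at day 3 from 9 to 7, and leaving out BM_day3.1 moved the number with under 10% left at BM day 7 from 4 to 1.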
